A study of Mus musculus with 29 samples.

Results

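The heat shock chaperone genes Hspa1a, Hspa1b, Hspa8, Hsp90aa1, Hsp90ab1, Hsph1, Dnajb1, Hspd1 and Hspe1, with the gene of their transcription factor Hsf1, were followed in hematopoietic stem cells (HSCs) of wild-type and Gadd45b knockout mice. They were taken by gene symbol, 10 of the 55376 symbols counted in each RNA-seq library, and all 10 were among the 33690 genes that passed the filter on low counts. Chaperones hold unfolded proteins and help them to fold. Members of the Hsp70 and Hsp90 families act in the cytosol with helper proteins, and Hsp60 with Hsp10 acts in mitochondria. When proteins unfold, as in heat, heat shock factor 1 (HSF1) binds heat shock elements, repeats of the letters GAA in alternating orientation, and drives transcription of the inducible genes, whereas Hspa8 and Hsp90ab1 are transcribed in most cells at all times.

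The study compared young with old HSCs and wild-type (WT) with Gadd45b knockout (KO) HSCs. Counts of 19 libraries were used here, 4 from young WT (YWT), 4 from old WT (OWT), 4 from young KO (YKO) and 7 from old KO (OKO) mice. The paper's methods list more OWT and YKO libraries than these. Gadd45b encodes a stress-induced protein linked to DNA demethylation. By their labels both KO ages carry the knockout and the WT groups do not. HSCs were sorted from bone marrow by surface markers, and the labels give young or old and no treatment. They do not say whether libraries of a group came from separate mice, so the p-values measure the spread between these libraries, which may be partly technical.

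Library totals ran from 22197555 to 77970627 counts. The YWT and YKO libraries and 3 OKO libraries belong to batch 1, and the OWT libraries and the other 4 OKO libraries to batch 2 (11 and 8 libraries, by the prefix of the sample titles), so that age and batch cannot be told apart in WT. In 14 libraries between 15296 and 16917 genes exceeded 1 CPM (counts scaled to a common library size), against 18530 in YKO2, 19626 in YWT4, 19725 in OKO3, 20579 in OKO2 and 27972 in OKO1. Mean values are given with their SD over the 4 libraries of a group, or the 7 of OKO. For Gadd45b itself the CPM was 10.5 ± 4.69 in YWT and 11.5 ± 2.63 in OWT, against 9.53 ± 4.64 in YKO and 4.45 ± 1.39 in OKO. The YKO and YWT ranges of this gene overlapped, so its counts do not bear out the label of YKO. Counts per gene symbol do not show which part of the gene was read. Each YKO value below is therefore that of libraries taken by their label. All 19 libraries are labelled female, but the Y-linked gene Ddx3y exceeded 1 CPM in 7 of them. Genes that define HSCs were detected in every group, with a summed CPM of 10 markers between 2345 and 4918. Markers of other blood cells were detected as well and none was at 0 throughout a group. In each library, fewer transcripts per cell and fewer cells that transcribe a gene cannot be told apart.

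Hspa1a and Hspa1b encode the same inducible Hsp70 protein and lie 9951 bases apart on the minus strand of chromosome 17. On GRCm38 (mm10), the build of the counts, Hspa1a (ENSMUSG00000091971.3) spans positions 34969190 to 34972156 and Hspa1b (ENSMUSG00000090877.3) positions 34956436 to 34959238. The 250 bases upstream of their start sites differed at 3 positions (98.8% identical). The stretches that hold 2 of these positions and the repeat match of the pair are shown because Hspa1a and Hspa1b gave the largest differences between groups. They run from 215 to 86 bases upstream of each start site, at chr17:34972242-34972371 and chr17:34959324-34959453 of GRCm38.p6, read 5′ to 3′ on the minus strand from RefSeq. The run of 8 capitals is the match to GAANNTTC, and single capitals mark the bases at which both promoters differ.
Hspa1a: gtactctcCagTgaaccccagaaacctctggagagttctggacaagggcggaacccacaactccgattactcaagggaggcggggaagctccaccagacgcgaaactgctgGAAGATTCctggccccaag
Hspa1b: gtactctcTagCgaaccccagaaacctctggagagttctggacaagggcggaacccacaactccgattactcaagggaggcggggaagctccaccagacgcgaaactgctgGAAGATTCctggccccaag

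The other printed site lies upstream of Hspe1 (Hsp10) and inside Hspd1 (Hsp60), which are transcribed in opposite directions and overlap at their 5′ ends on chromosome 1. On GRCm38, Hspd1 spans positions 55077835 to 55088243 on the minus strand and Hspe1 positions 55088132 to 55091307 on the plus strand. This stretch of 30 bases at chr1:55088053-55088082 of GRCm38.p6 is printed on the plus strand, in the direction of Hspe1, and lies in an annotated exon of Hspd1. The run of capitals holds GAA and its reverse complement TTC in alternation.
Hspe1 and Hspd1: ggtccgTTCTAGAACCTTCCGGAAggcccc

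A search for 3 alternating repeats (GAANNTTCNNGAA, on both strands, which includes the shorter forms GAANNTTC and TTCNNGAA) was made in the RefSeq windows of 300 bases around start sites, 250 of them upstream. It matched 198 of 32851 windows (0.603%). Windows were at hand for 6 of the 10 genes and not for Hspa8, Hsp90aa1, Hsp90ab1 and Hsf1. Hspe1 held the match upstream. At the same bases it lay upstream of 1 of 2 Hspd1 start sites in RefSeq, whereas the window at the outer start site, where the annotated gene begins, held none. In the Hsph1 windows the match lay downstream, at base 15 or 36 after the start site by the window used. Hspa1a and Hspa1b held only the shorter GAANNTTC, found in 7.86% of windows, at base -104, and the Dnajb1 windows held neither form. A missing match says only that these letters are not in this window.

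Of all 10 genes, Hspa1a and Hspa1b varied most. Hspa1a had a CPM, normalized by the TMM method of edgeR, of 48.8, 30.1, 22.5 and 47.0 in YWT1 to YWT4. In OWT1 to OWT4 it was 1.27, 0.578, 1.21 and 0.687. The libraries labelled YKO1 to YKO4 had 0.319, 8.28, 7.57 and 6.15 CPM. In the 7 OKO libraries the lowest was 0.913, the median 1.56 and the highest, OKO2, 12.6. All 4 YWT libraries lay above each of the other 15 libraries. The lowest YWT library held 1.79 times the CPM of the highest library elsewhere. These values rest on 1246 to 2739 counts per library in YWT, 38 to 90 in OWT, 6 to 440 in YKO and 49 to 677 in OKO.

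Hspa1b followed the same order at a higher level. Its CPM was 88.1, 59.7, 60.6 and 126.6 in YWT1 to YWT4 and 4.84, 3.33, 2.39 and 2.23 in OWT1 to OWT4. The values in YKO1 to YKO4, by their labels, were 2.24, 26.9, 17.4 and 12.1. Among the OKO libraries the lowest was 2.30, the median 5.72 and the highest, again OKO2, 30.9. The YWT libraries lay above the other 15 here too, by a ratio of 1.93 between the lowest YWT and the highest other library. With scaling by library totals in place of TMM this order held, with YWT2 lowest at 20.8 and 41.3 CPM and OKO2 highest elsewhere at 15.6 and 38.4 CPM for Hspa1a and Hspa1b. Of the 33690 genes tested, 9 (0.0267%) had all YWT libraries above all others, and by this ratio Hspa1b stood in place 1 and Hspa1a in place 3.

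**Figure D1:**
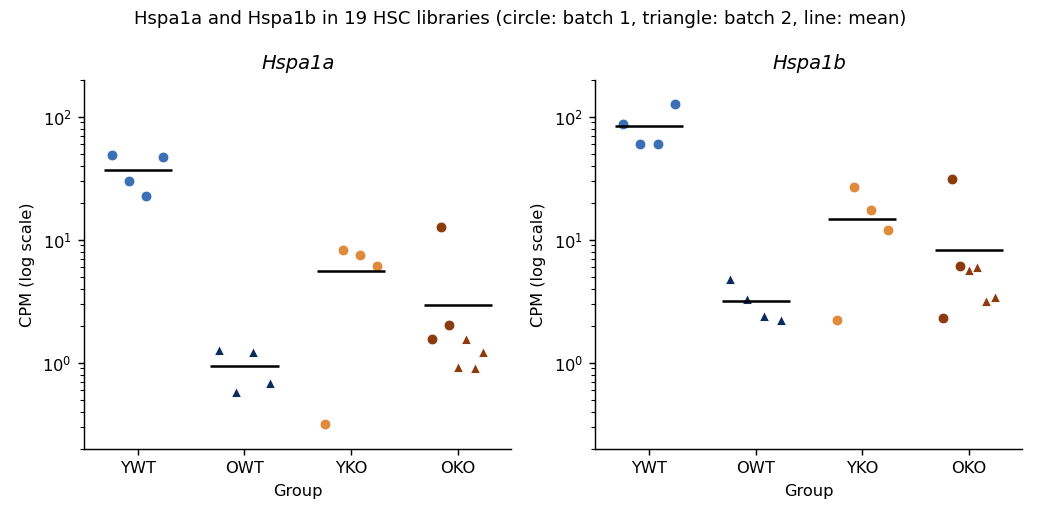
Each point is 1 library, with the group on the x axis and TMM-normalized CPM on a log scale on the y axis; circles are batch 1, triangles batch 2 and the line is the group mean. The 4 YWT libraries stand between 22.5 and 48.8 CPM for Hspa1a and between 59.7 and 126.6 CPM for Hspa1b, above all other libraries, while YKO1 and OKO2 lie far from the rest of their groups.

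The first comparison asked how old WT HSCs differ from young ones. Hspa1a was lower in OWT by a fitted log2 fold change of -5.30 (SE 0.90), a 39.5-fold difference, and Hspa1b by -4.71 (SE 0.77), a 26.1-fold difference. The groups did not overlap for either gene. Neither passed the test, with an edgeR adjusted p of 0.0508 for both against a threshold of 0.05, at ranks 4 and 2 of all genes by p. In OWT vs YWT edgeR called 0.00297% of the genes tested, 1 gene, and 0 of the 10 chaperone genes. At an unadjusted p under 0.05 stood 2 of the 10, against 4.38% of all genes, and DESeq2 called the same number, 2, against 0.251% of all genes. These were Hspa1a (DESeq2 adjusted p = 1.92e-06) and Hspa1b (adjusted p = 1.61e-06). With edgeR fitted to the OWT and YWT libraries alone, both had an adjusted p of 0.000266, where 0.158% of all genes were called. With batch as a covariate, which OKO alone spans, the log2 fold change was -3.09 for Hspa1a (adjusted p = 0.200) and -3.19 for Hspa1b (adjusted p = 0.188).

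Because Hspa1a shared 58.8% of its stretches of 50 exon bases with Hspa1b, and Hspa1b 62.3% with Hspa1a, reads of the pair may have been split between them or left uncounted. Hspa1a also shares 564 exon bases with Gm20481, and whether the counting used strand is not given in the sources used here. The counts of both genes were therefore also summed. The summed CPM (mean ± SD, n as above) was 120.8 ± 42.5 in YWT against 4.13 ± 1.38 in OWT, and 20.2 ± 13.7 in YKO against 11.2 ± 14.3 in OKO. The sum was 29.2-fold lower in OWT than in YWT (edgeR adjusted p = 0.0520). Hspa1b had between 1.46 and 7.00 times the counts of Hspa1a, so no library had more of the latter.

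The second comparison asked how the knockout differs in young HSCs. These groups belong to 1 batch and share the YWT libraries with the first comparison. All 4 libraries labelled YKO lay below all 4 YWT libraries for both genes. The log2 fold change of Hspa1a was -2.72 (SE 0.79, 6.59-fold, edgeR adjusted p = 0.530) and that of Hspa1b -2.51 (SE 0.70, 5.70-fold, adjusted p = 0.437). Neither passed the test, and edgeR called 0 of the 10 genes, against 0.0267% of all genes. At an unadjusted p under 0.05 stood the same count, 2 of 10, against 4.59% of all genes, and DESeq2 called 0 of the 10, against 0.27%. Among the libraries labelled YKO, YKO1 was lowest in both genes and had the fewest total counts of all, 22197555. Without it the log2 fold change was -2.37 for Hspa1a and -2.19 for Hspa1b.

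In KO HSCs the ages overlapped. The log2 fold change of OKO vs YKO was -0.92 (SE 0.65, edgeR adjusted p = 0.503) for Hspa1a and -0.83 (SE 0.57, adjusted p = 0.493) for Hspa1b. These values depended on single libraries. Leaving out each in turn gave -2.03 to -0.69 for Hspa1a and -1.71 to -0.38 for Hspa1b. Without OKO2 the difference of Hspa1a was -2.03 and passed the test (adjusted p = 0.0371), and that of Hspa1b was -1.71 and did not (adjusted p = 0.0502), with 1.36% of all genes called. With the 3 OKO libraries of batch 1 alone, of which OKO2 is 1, the log2 fold change was -0.01 for Hspa1a and -0.11 for Hspa1b. OKO2 had 20579 genes above 1 CPM, and the part of this in its Hspa1 level was not tested. OKO1 and OKO3, of the same batch and also with more genes detected, had 1.57 and 2.01 CPM of Hspa1a.

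Old KO stood above old WT for both genes, by a log2 fold change of 1.66 (SE 0.72, edgeR adjusted p = 0.592) for Hspa1a and 1.37 (SE 0.62, adjusted p = 0.592) for Hspa1b, with overlapping groups. With OKO of batch 2 alone, the batch of OWT, these were 0.33 and 0.55, and without OKO2 they were 0.56 and 0.49. The age difference was smaller in KO than in WT, by an interaction of 4.38 (SE 1.07) for Hspa1a and 3.88 (SE 0.93) for Hspa1b. Neither passed, with an edgeR adjusted p of 0.811 for both and an unadjusted p of 0.000493 and 0.000417. The WT part of this contrast cannot be told apart from batch. With batch as a covariate the edgeR adjusted p was 0.9999 for both genes. The age difference of Hspa1a in that fit was -3.09 in WT and -0.06 in KO, and that of Hspa1b -3.19 and -0.16. Over all alternatives the interaction lay between 3.02 and 4.71 for Hspa1a and between 3.00 and 4.34 for Hspa1b, and it passed in none. All 10 genes stood uncalled in the interaction, in which edgeR called 0% of all genes and DESeq2 0.0152%, and 2 of the 10 had an unadjusted p under 0.05 against 4.62% of all genes.

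In YWT, Hspa1a was 22.5 and 47.0 CPM in the libraries with Ddx3y above 1 CPM and 48.8 and 30.1 CPM in the others, so both kinds were high.

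Hspa8 encodes the constitutive Hsp70 protein, and Hsp90aa1 and Hsp90ab1 the inducible and the constitutive form of cytosolic Hsp90. These were the most abundant of the 10 transcripts per length. In YWT, Hsp90ab1 had 592.2 ± 54.4 CPM per kb of exon (SD, n = 4), Hspa8 468.3 ± 157.4, Hsp90aa1 178.9 ± 32.4, Hspd1 143.4 ± 21.4 and Hspe1 96.3 ± 17.0. Dnajb1 followed with 54.2 ± 7.23 CPM per kb, Hspa1b with 29.9 ± 11.2, Hsph1 with 17.0 ± 6.64, Hspa1a with 12.5 ± 4.34 and Hsf1 with 11.5 ± 0.555. Means of neighbours in this order lay within 1 SD of each other for Hsp90ab1 with Hspa8 and for Hsph1 with Hspa1a and Hspa1a with Hsf1. In OWT the Hspa1 pair took the last places, with 1.14 ± 0.428 CPM per kb for Hspa1b and 0.316 ± 0.120 for Hspa1a (SD, n = 4), while Hsf1 stood at 11.7 ± 2.90.

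Hspa8 (ENSMUSG00000015656.17, chromosome 9) had between 1196 and 2746 CPM in YWT, 1257 and 1546 in OWT, 1502 and 2417 in the libraries labelled YKO and 486 and 2058 in OKO. Every pair of groups overlapped. The log2 fold change was -0.55 (SE 0.35) in OWT vs YWT and -0.41 (SE 0.31) in OKO vs YKO, and neither passed the test. It shared 39.4% of its stretches with other genes, mostly the processed copy Gm15459, so its level is uncertain to that extent.

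Hsp90aa1 (ENSMUSG00000021270.13, chromosome 12) ranged from 529 to 833 CPM in YWT, 315 to 673 in OWT, 381 to 738 in the libraries labelled YKO and 214 to 846 in OKO. In OWT, 3 of 4 libraries lay below all YWT libraries, and the log2 fold change was -0.57 (SE 0.38, edgeR adjusted p = 1.00). By library totals only OWT2, at 286 CPM, lay below the lowest YWT library, YWT2 at 366 CPM. Hsp90aa1 shared 47.5% of its stretches with other genes.

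Hsp90ab1 (ENSMUSG00000023944.14, chromosome 17) had the smallest difference of these between ages in WT. Its CPM was 1822, 1566, 1757 and 1959 in YWT1 to YWT4 and 1740, 1782, 1586 and 1505 in OWT1 to OWT4, with a log2 fold change of -0.10 (SE 0.29, 95% interval -0.71 to 0.50). In the libraries labelled YKO1 to YKO4 it was 2144, 1340, 2134 and 2061, and in OKO the lowest was 647, the median 1498 and the highest 1961. The log2 fold change of OKO vs YKO was -0.46 (SE 0.26, edgeR adjusted p = 0.389). With batch as a covariate it was -0.92 (adjusted p = 0.0151) and with OKO of batch 1 alone -0.86 (adjusted p = 0.0274). Both passed the threshold in fits that called 19.1% and 17.9% of all genes, so that a call there is common. The 3 OKO libraries of batch 1 had 647 to 1393 TMM-normalized CPM and the 4 of batch 2 had 1498 to 1961. By library totals they overlapped, with 1176, 1731 and 1411 CPM in OKO1 to OKO3 against 1398 to 1641 CPM in batch 2, where OKO2 was the highest of OKO. These 3 are also libraries in which more genes exceeded 1 CPM and had the highest TMM factors, 1.24 to 1.83, whose part in the difference was not tested.

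**Figure D2:**
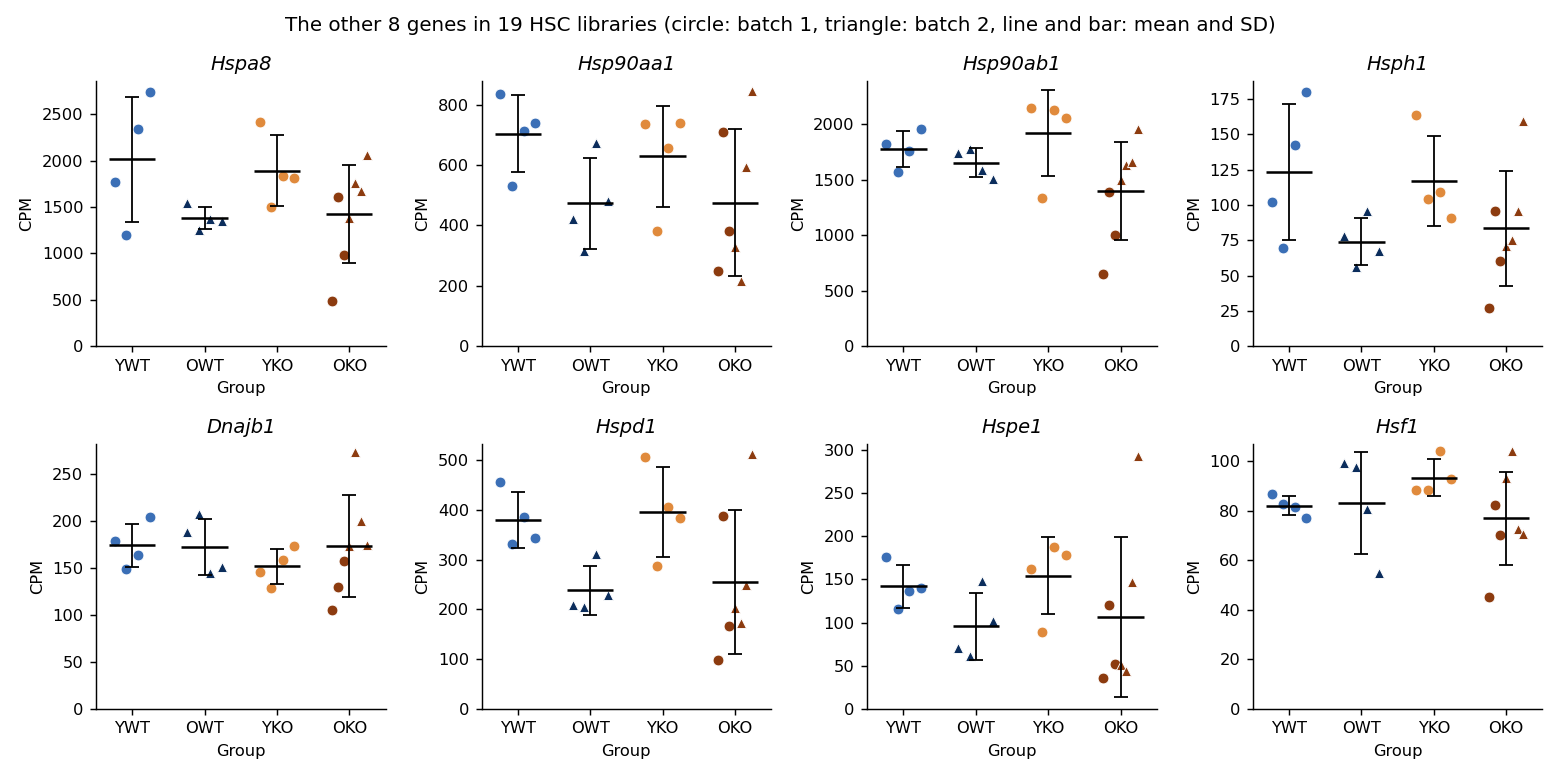
Each point is 1 library, with the group on the x axis and TMM-normalized CPM on the y axis from 0; circles are batch 1 and triangles batch 2, and the line and bar give the group mean and SD. Groups overlap in most panels, the OWT libraries of Hspd1 lie at or below 311 CPM with YWT at or above 331 CPM, and OKO1 is the lowest library for Hspa8, Hsp90ab1, Hsph1, Dnajb1, Hspd1, Hspe1 and Hsf1, which it is for none of them by library totals.

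Dnajb1 (Hsp40) delivers unfolded proteins to Hsp70, and Hsph1 (Hsp110) is a nucleotide exchange factor of Hsp70. Both are inducible by heat. Dnajb1 (ENSMUSG00000005483.10, chromosome 8) had 173.8 ± 23.2 CPM in YWT and 172.4 ± 29.97 CPM in OWT (SD, n = 4), and the log2 fold change between them was -0.01 (SE 0.24, 95% interval -0.51 to 0.49). The KO groups stood at 151.5 ± 18.7 CPM when young and 173.2 ± 54.2 CPM when old (SD, n = 4 and 7). By TMM its group means differed by at most 1.15-fold, the least of the 10 genes. By library totals it was not the least, with means from 139.7 CPM in YKO to 188.7 CPM in OKO. Those of Hsf1 then ran from 76.9 CPM in OWT to 86.2 CPM in YKO. Hsph1 (ENSMUSG00000029657.15, chromosome 5) had 69.1 to 180.1 CPM in YWT and 55.9 to 95.4 in OWT, with a log2 fold change of -0.74 (SE 0.37, edgeR adjusted p = 1.00), next after the Hspa1 pair. In the libraries labelled YKO it ranged from 90.5 to 163.5 CPM and in OKO from 26.7 to 159.3 CPM.

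The mitochondrial pair Hspd1 (ENSMUSG00000025980.14) and Hspe1 (ENSMUSG00000073676.4) was lower on average in both old groups. Hspd1 had 456, 331, 385 and 343 CPM in YWT1 to YWT4 and 210, 204, 311 and 228 CPM in OWT1 to OWT4, with no overlap. By library totals the groups overlapped, with a lowest YWT library of 229 CPM and a highest OWT library of 292 CPM. In the libraries labelled YKO1 to YKO4 it had 506, 287, 405 and 384 CPM, and in OKO the lowest was 98.8, the median 202 and the highest, OKO7, 512 CPM. The log2 fold change was -0.67 (SE 0.36, edgeR adjusted p = 1.00) in OWT vs YWT and -0.63 (SE 0.31, adjusted p = 0.331) in OKO vs YKO. Neither passed the test. Hspe1 had 115 to 176 CPM in YWT, 60.6 to 148 in OWT, 89.1 to 188 in the libraries labelled YKO and 36.0 to 293 in OKO. Its log2 fold change was -0.57 (SE 0.50) in OWT vs YWT and -0.54 (SE 0.44) in OKO vs YKO. Hspd1 shared 39.7% and Hspe1 18.4% of their stretches with other genes, and both overlap by 112 exon bases.

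The factor gene Hsf1 (ENSMUSG00000022556.11, chromosome 15) stood at 86.7, 82.6, 81.5 and 77.1 CPM in YWT1 to YWT4 and at 99.2, 97.6, 80.8 and 54.9 CPM in OWT1 to OWT4. The log2 fold change between them was 0.02 (SE 0.22, 95% interval -0.45 to 0.49). In the libraries labelled YKO1 to YKO4 it stood at 88.3, 88.4, 104.0 and 92.6 CPM, all above YWT (not so by library totals, where 74.7 to 99.0 CPM stood against 57.2 to 93.7), with a log2 fold change of 0.19 (SE 0.23, edgeR adjusted p = 1.00). In OKO the lowest was 45.3, the median 72.5 and the highest 103.9 CPM. Transcript counts of Hsf1 do not measure the activity of the protein.

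As groups of libraries, the genes can be read against all genes, on TMM-normalized CPM. In OWT vs YWT, 3 of the 10 had all OWT libraries below all YWT libraries (Hspa1a, Hspa1b and Hspd1), against 1.90% of all genes, and 0 had them above, against 2.24%. In YKO vs YWT, 2 were below without overlap (the Hspa1 pair), against 3.01% of all genes, and 1 above (Hsf1), against 2.12%. In OKO vs YKO, 0 of the 10 were separated, against 1.12% of all genes above and 1.48% below, and in OKO vs OWT 0, against 0.46% above and 0.359% below. The median log2 fold change of the 10 genes was -0.57 in OWT vs YWT with 9 lower, and -0.08 in YKO vs YWT with 6 lower, where the medians of all genes were -0.05 and -0.02. In OKO vs YKO it was -0.47 with 9 lower and 0.23 over all genes, and in OKO vs OWT 0.07 with 2 lower and 0.12 over all genes. In a fit of genes at a mean CPM of at least 5, the median over all genes was 0.03 in both. The last 2 comparisons called 1.29% and 0.0327% of all genes and 0 of the 10 with edgeR. DESeq2 called 0 of the 10 as well, against 4.04% and 0.194% of all genes. At an unadjusted p under 0.05 they held 0 and 2 of the 10, against 15.8% and 8.14% of all genes.

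**Figure D3:**
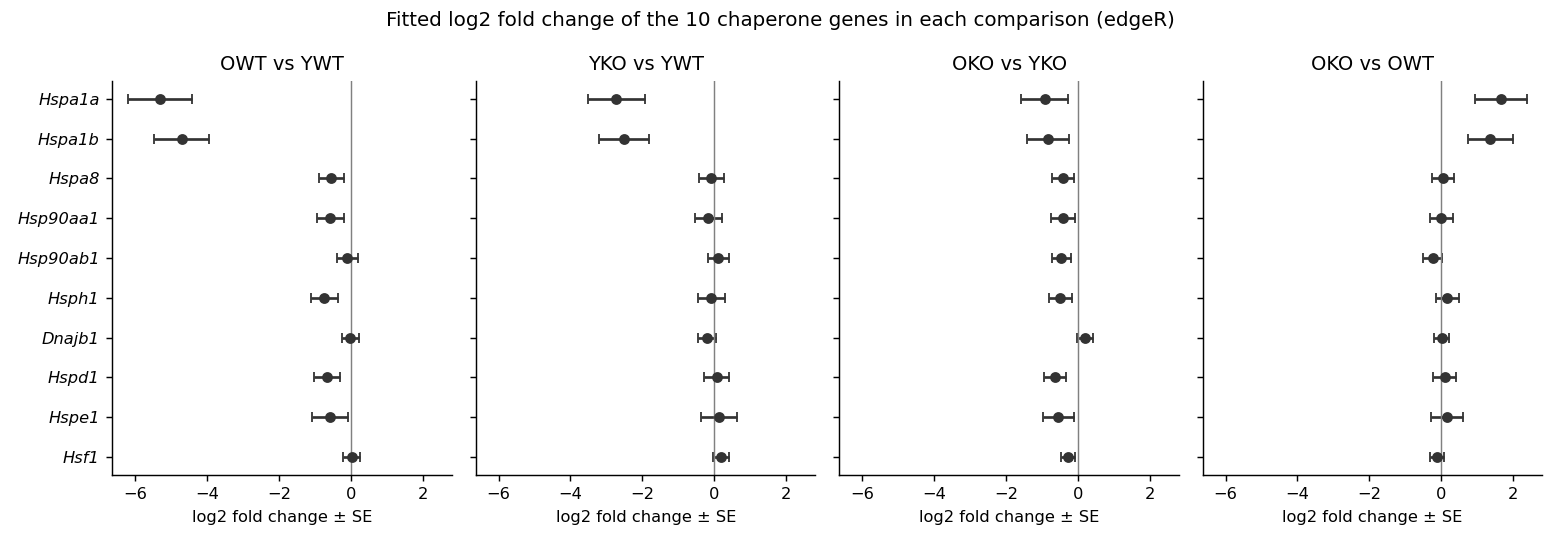
Points give the fitted log2 fold change and bars its SE for each of the 10 genes (y axis) in 4 comparisons, with 0 marked by a grey line. Hspa1a and Hspa1b stand at -5.30 and -4.71 in OWT vs YWT and at -2.72 and -2.51 in YKO vs YWT, while each of the other 8 genes lies between -0.74 and 0.19 in all panels.

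Within the set, levels moved together in some pairs of genes and not in others. Because YWT stands apart for the Hspa1 pair, this relation was taken over the other 15 libraries, where log2 CPM of Hspa1a and Hspa1b gave Pearson's r = 0.94 (permutation p = 1e-05, the smallest that 100000 resamples can give) and Spearman's rho = 0.84 (permutation p = 0.00019). Without OKO2 and YKO2, the libraries farthest from the median, r was 0.88. In batch 2, which holds no YWT library, r was only 0.48, against 0.98 in batch 1 with YWT included. Shared sequence, as given above, may place reads of one gene on the other.

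Between the other 8 genes, 19 of 28 pairs had an adjusted permutation p under 0.05 over the 19 libraries, with adjustment over all 45 pairs of the 10 genes. Of the 16 pairs that joined Hspa1a or Hspa1b to one of them, 0 did, with r between -0.05 and 0.44. The share among pairs of other genes at like levels was not counted, so 19 of 28 has no background here. By TMM, OKO1, with the highest factor (1.83), was the lowest library for each of the 8 genes but Hsp90aa1. By library totals it was lowest for none. For each of the 28 pairs, r was also taken without OKO1, but always with a further library left out. The part of OKO1 alone in these correlations was therefore not tested. Hspa8 and Hsph1 had r = 0.94 and rho = 0.90 (permutation p = 1e-05 and adjusted p = 7.5e-05 for r), with r = 0.87 without OKO1 and YWT4, 0.99 in batch 1 and 0.81 in batch 2. Hsp90aa1 and Hspe1 had r = 0.94 and rho = 0.89 (permutation p = 1e-05, adjusted p = 7.5e-05), with r = 0.92 without OKO5 and OKO1, 0.94 in batch 1 and 0.96 in batch 2. Hspd1 and Hspe1, whose 5′ ends overlap, had r = 0.92 and rho = 0.89 (permutation p = 1e-05, adjusted p = 7.5e-05), with r = 0.89 without OKO1 and OKO3, 0.96 in batch 1 and 0.94 in batch 2. Deviations from group means gave r = 0.93, 0.94 and 0.90 for these 3 pairs, so they held within groups. The relation of Hspa8 with Hsf1 (r = 0.55, rho = 0.23, permutation p = 0.0221, adjusted p = 0.0498) rested on OKO1 and YWT4, since r was 0.21 without them, and was 0.78 in batch 1 and -0.06 in batch 2. That of Dnajb1 with Hsf1 (r = 0.54, rho = 0.35, permutation p = 0.0200, adjusted p = 0.0486) was 0.12 without OKO5 and OKO1, with 0.55 in batch 1 and 0.62 in batch 2.

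**Figure D4:**
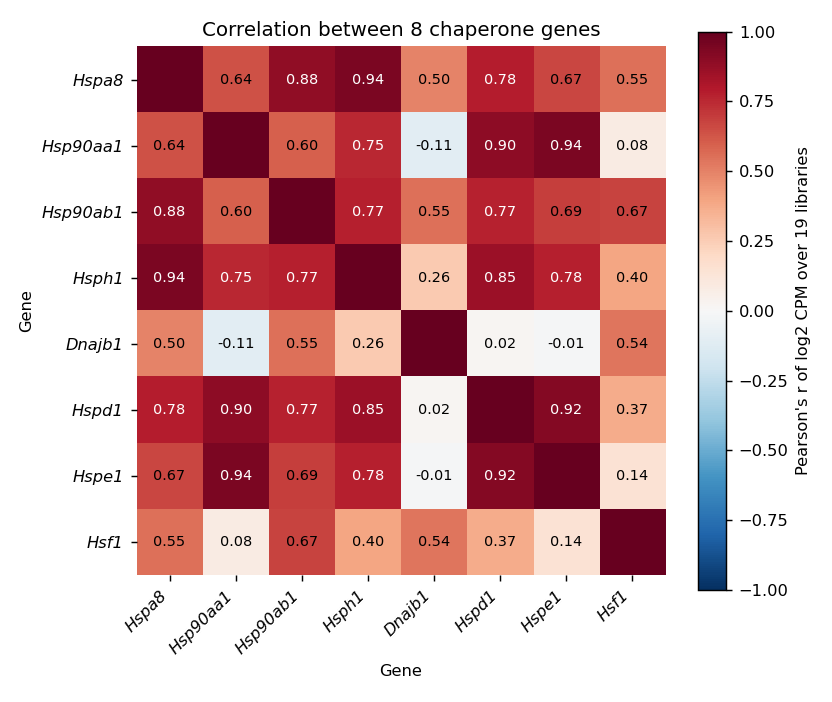
Each cell gives Pearson's r of log2 CPM over 19 libraries between 2 of the 8 genes other than the Hspa1 pair, with red for positive and blue for negative values. Hspa8 with Hsph1 and Hsp90aa1 with Hspe1 reach 0.94, and Dnajb1 and Hsf1 have the lowest values with Hsp90aa1, Hspd1 and Hspe1.

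Genes most like 3 of the members were sought over 11232 genes at a mean log2 CPM of 3 or more, with the 10 members left out of the search, among which Hspa1a with Hspa1b (r = 0.98) and Hspa8 with Hsph1 (r = 0.94) had higher values. Those most like Hspa1a over the 19 libraries were 1810026B05Rik (r = 0.82), Shisa8 (r = 0.76) and Zfp994 (r = 0.72). Shisa8 had a mean of 32.9 CPM in YWT, 15.4 in OWT, 18.1 in the libraries labelled YKO and 8.87 in OKO. Those most like Hspa8 were Stip1 (r = 0.94), Ahsa1 (r = 0.91) and Dnaja1 (r = 0.90), and those most like Hspd1 were Lyar (r = 0.96), Anp32e (r = 0.95) and Nasp (r = 0.95). Stip1 links Hsp70 to Hsp90, Ahsa1 activates the ATPase of Hsp90 and Dnaja1 is a J protein of the cytosol.

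Another 100 chaperone and stress genes in 6 lists were set beside the 10. edgeR called 0 of the 100 in each of the 4 comparisons and in the interaction. At an unadjusted p under 0.05, 0 were higher and 0 lower in OWT vs YWT, 1 higher and 4 lower in YKO vs YWT, 5 higher and 12 lower in OKO vs YKO, 0 higher and 3 lower in OKO vs OWT, and 1 higher and 0 lower in the interaction. Over all genes, in either direction, these shares were 4.38%, 4.59%, 15.8%, 8.14% and 4.62%. The 5 of 100 in YKO vs YWT and 17 of 100 in OKO vs YKO lay near these shares. A fit of genes at a mean CPM of at least 5 had shares of 13.4% and 33.8% in these 2 comparisons. The count of the 100 in that fit is not given here, so a background at like levels is missing. Their median log2 fold change was -0.05 in OWT vs YWT, 0.02 in YKO vs YWT, -0.24 in OKO vs YKO and -0.18 in OKO vs OWT. Of the 100, 84 were negative in OKO vs YKO and 89 in OKO vs OWT, where 61.8% and 55.9% of all genes were higher. The median over all genes was 0.23 and 0.12 there, and 0.03 in both at a mean CPM of at least 5. OKO1 to OKO3 had the highest TMM factors, 1.24 to 1.83, and their part in these signs was not tested.

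The first list held 19 HSF genes and stress-induced partners, with a median of 0.13 in OWT vs YWT and -0.31 in YKO vs YWT. Bag3, an HSF1 target that joins Hsp70 to autophagy, had 19.4 ± 2.23 CPM in YWT and 16.9 ± 3.50 in OWT (SD, n = 4), and its log2 fold change in OKO vs YKO was -0.71 (SE 0.19, adjusted p = 0.0717). Serpinh1, a collagen chaperone, had 7.90 ± 2.53 CPM in YKO against 17.2 ± 6.51 CPM in OKO (SD, n = 4 and 7), a log2 fold change of 1.12 (SE 0.35, adjusted p = 0.114).

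For the 18 helpers of Hsp70 in the cytosol the median log2 fold change stood at -0.04 in OWT vs YWT and -0.35 in OKO vs YKO, where 16 of 18 were negative. In OKO vs OWT 18 of 18 were negative, with a median of -0.16. Bag1, a nucleotide exchange factor, stood at -0.81 (SE 0.31, edgeR adjusted p = 0.202) in OKO vs YKO. Hspa14, an Hsp70 of the ribosome, stood at -0.67 (SE 0.26, adjusted p = 0.207) there. The 18 co-chaperones of Hsp90 had medians of -0.04 in OWT vs YWT and -0.20 in OKO vs YKO. In the latter Rpap3 stood at -0.71 (SE 0.25, adjusted p = 0.161). In the chaperonin TRiC and its partner prefoldin, which fold actin and tubulin, 14 of 14 were negative in OKO vs YKO, with a median of -0.48 and Cct2 at -0.73 (SE 0.25, adjusted p = 0.157). These 14 were all negative in OKO vs OWT too, with a median of -0.17. All 14 mitochondrial chaperones and proteases were negative in OKO vs YKO, with a median of -0.36. Hspa9, the mitochondrial Hsp70, stood at -0.57 (SE 0.24, adjusted p = 0.239) in that comparison. In OKO vs OWT 12 of these 14 were negative, with a median of -0.18. The 17 chaperones of the endoplasmic reticulum had a median of -0.03 in OWT vs YWT, -0.19 in YKO vs YWT and -0.14 in OKO vs YKO. Hsp90b1, the Hsp90 of that compartment, stood at -0.73 (SE 0.46, adjusted p = 1.00) in YKO vs YWT.

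Sorting and dissociation of tissue are known to induce immediate-early genes such as Fos and Jun, and these were counted beside the Hspa1 pair. The summed CPM of 23 immediate-early genes was 1076 to 2231 in YWT, 1759 to 2093 in OWT, 1270 to 1567 in the libraries labelled YKO and 1265 to 2568 in OKO. YWT4 had the highest Hspa1 sum, 173.6 CPM, and the lowest immediate-early sum, 1076 CPM. YWT1 and YWT2 had immediate-early sums of 2154 and 2231 CPM with Hspa1 sums of 136.9 and 89.8 CPM. Fos was 208 and 166 CPM in these libraries and 13.0 and 10.6 CPM in YWT3 and YWT4. The part of sorting and dissociation in the Hspa1 levels was not tested. edgeR called 3 of the 23 genes higher in OKO vs YKO, against 1.29% of all genes in either direction, and 0 in the other 3 comparisons and the interaction. These were Fosl2 with a log2 fold change of 2.53 (SE 0.56, adjusted p = 0.0265), Socs3 with 2.85 (SE 0.72, adjusted p = 0.0498) and Ier3 with 1.46 (SE 0.36, adjusted p = 0.0449). At an unadjusted p under 0.05 in the remaining comparisons stood 4 in OWT vs YWT, 2 in YKO vs YWT, 0 in OKO vs OWT and 1 in the interaction, against 4.38%, 4.59%, 8.14% and 4.62% of all genes.

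**Figure D5:**
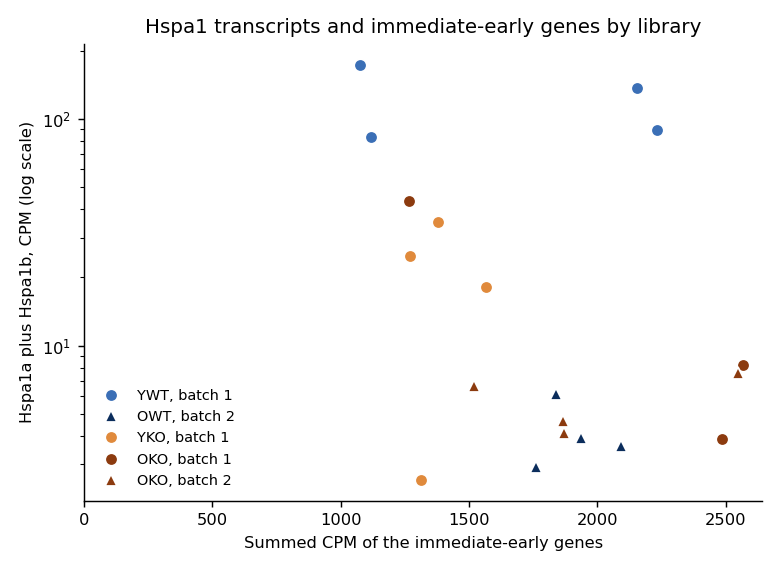
Each point is 1 library, with the summed CPM of 23 immediate-early genes on the x axis and the summed CPM of Hspa1a and Hspa1b on a log scale on the y axis. The 4 YWT libraries stand highest at between 83.1 and 173.6 CPM and lie in 2 pairs, at 1076 and 1117 and at 2154 and 2231 CPM on the x axis.

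Markers of other blood cells differed between the groups. The summed CPM of 7 B cell markers was 210 to 642 in YWT, 63.6 to 204 in OWT, 190 to 1452 in the libraries labelled YKO and 27.3 to 195 in OKO. That of 7 erythroid markers was 618 to 2042 in YWT, 140 to 922 in OWT, 1560 to 4454 in the libraries labelled YKO and 33.6 to 2531 in OKO. For 6 T cell markers it was 16.7 to 26.0 in YWT, 16.5 to 26.7 in OWT, 24.8 to 113 in the libraries labelled YKO and 8.33 to 41.0 in OKO. For 8 granulocyte markers it was 210 to 402 in YWT, 605 to 895 in OWT, 50.3 to 290 in the libraries labelled YKO and 202 to 605 in OKO, and for 6 megakaryocyte markers 806 to 1115, 633 to 2020, 661 to 1258 and 451 to 1332. The B cell list was lower in OWT than in YWT without overlap, by a narrow gap (204 against 210 CPM). The granulocyte list was higher in OWT without overlap. The part of these cells in the levels of Hspd1, Hspa1a and Hspa1b was not tested.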

How the data were processed

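RNA-seq libraries of 19 HSC samples were prepared with the SMART-Seq v4 kit. The authors trimmed reads with Trim Galore 0.4.3, aligned them with STAR to mm10 with GENCODE M22 genes, and deposited raw counts per gene symbol from featureCounts, whose pairing and strand settings are not given in the sources used here. The 10 bisulfite samples were not analysed here.

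Groups follow the labels. Counts were filtered with filterByExpr, scaled by TMM and tested with edgeR 4.0.16 (quasi-likelihood, R 4.3.3) in 1 fit of all 19 libraries, 1 mean per group and no covariate, with Benjamini-Hochberg adjustment over 33690 genes. The study used DESeq2, which was run as an alternative (DESeq2 1.42.0). A call needed an adjusted p below 0.05 with more than a 1.5-fold change, or in the interaction that p alone. The procedure was tested on simulated data. Correlations used log2(CPM + 1) with 100000 resamples. Alternatives were other normalizations and filters, the compared groups only, a batch covariate, a replicate block, OKO of 1 batch and leaving out each library. Exon stretches of 50 bases and positions came from GENCODE M21 on GRCm38. List genes named are those called and otherwise those with the largest or smallest fold changes where mean log2 CPM was 3 or more, and like genes the 3 with the highest r. One list gene that this rule names is not reported here. The genes and lists were chosen with earlier results of these data known.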

Additional observations from a re-analysis of the deposited data

Results flagged for a closer look

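In 4 of 40 sets of values (10 genes in 4 groups) 1 library lay far from the others of its group, by the gap to its nearest neighbour over the range, where chance gives about 1 in 20, or 2 of 40. OKO2 had 12.6 CPM of Hspa1a and 30.9 CPM of Hspa1b, both the highest of OKO. YKO2 had 1340 CPM of Hsp90ab1, the lowest of the libraries labelled YKO. OKO7 had 293 CPM of Hspe1, the highest of all 19 libraries.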

How the results depend on the processing

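edgeR called 0 of the 10 genes in every comparison. In OWT vs YWT, 2 were called (Hspa1a and Hspa1b) under DESeq2 (0.251% of all genes called), without a filter on low counts (0.0152%), with the compared groups only (0.158%), and without the 5 libraries in which over 18000 genes exceeded 1 CPM (0.0235%), the last chosen after seeing the data. With the replicate number as a block the count was also 2 in OWT vs YWT (0.0267% of all genes), and the block changed no other call. Of 24 pairs of libraries with 1 number, 5 had correlated deviations over 0.1 (median r = -0.11), so the numbers were not taken to pair samples. In OKO vs YKO, 1 gene was called with batch as a covariate and 1 with OKO of batch 1 alone (Hsp90ab1 in both), where 19.1% and 17.9% of all genes were called, and leaving out single libraries gave 0 to 1 (Hspa1a, without OKO replicate 2, with 1.36% of all genes called). Over all alternatives Hspa1a lay between -5.48 and -3.09 in OWT vs YWT and Hspa1b between -4.98 and -3.19, with adjusted p of at most 0.231 and 0.200. In YKO vs YWT they lay between -2.96 and -2.37 and between -2.97 and -2.19, and leaving out single libraries gave adjusted p of 0.605 to 0.966 for Hspa1a. Of 1070 fold changes under alternatives, 980 kept sign and side of the threshold, 13 newly passed, and 77 uncalled values, all at most 0.61 in size, changed sign. Of 45 correlated pairs 20 passed over all libraries, 3 in batch 2 alone and 10 without the 2 farthest libraries. The 95% interval of OWT vs YWT ran from -0.51 to 0.49 for Dnajb1 and from -1.61 to 0.46 for Hspe1 on the log2 scale, so a missed threshold does not show that levels were alike.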
